A study of Drosophila melanogaster with 18 samples.

Results

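Rab GTPase genes were followed through a Drosophila melanogaster RNA-seq experiment on reduced shep, a gene for an RNA-binding protein active in the nervous system. Members were the genes of the counts table whose FlyBase identifier maps to a current symbol made of Rab or RabX, digits and at most 2 letters. The rule found 32 of 17402 genes, so that factors named after a Rab, such as Rab3-GEF, are not members. Rab1 was not matched to the table through its current identifier and was not analysed here. The 18 libraries formed 6 groups of 3. Live neurons were sorted from P14 pupae (late pupal life) with shep RNAi, from P14 control pupae, from larvae of the third instar with shep RNAi and from control larvae of that instar. In all 4 neuron groups the pan-neuronal elav driver expressed Dcr (Dicer, which strengthens RNAi) and the membrane marker mCD8::GFP, and the RNAi groups added a shep-RNAi transgene. The other libraries came from BG3-c2 cells, a line from the larval nervous system, treated with double-stranded RNA (dsRNA) that targets shep, or GFP in the control cells. Whether replicates came from distinct cultures or animals is not in the labels, so each p-value reflects only the spread among these libraries.

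Rab proteins are small GTPases that mark the membranes of the secretory and endocytic pathways. Each cycles between a GTP-bound form that recruits effectors (tethers, motors, lipid kinases) and a GDP-bound form. Exchange factors (GEFs) load GTP and GTPase-activating proteins (GAPs) trigger its hydrolysis. A GDP dissociation inhibitor extracts the protein from the membrane, and a prenyltransferase with its escort protein adds the lipid anchor. In neurons, Rabs serve synaptic vesicle release, axonal transport, receptor recycling and degradation.

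Library totals were 7392299 to 10607171 counts with pupal RNAi, 8548493 to 9445025 in pupal controls, 9134690 to 10793289 with larval RNAi, 9984725 to 12910603 in larval controls, 3651214 to 5081610 with BG3 shep dsRNA and 3141100 to 3203392 with BG3 GFP dsRNA. Every shep dsRNA library was thus deeper than every GFP dsRNA library. The targeted gene shep was below its controls in each of the 9 knockdown libraries, with log2 fold changes of -0.92 (SE 0.10) in pupal neurons, -1.44 (SE 0.11) in larval neurons and -1.08 (SE 0.09) in BG3 cells. Levels are given in CPM, counts scaled to library size with trimmed-mean (TMM) factors over all 18 libraries. The summed level of 6 neuronal markers (elav, nSyb, Syt1, brp, fne, Appl) was 27816 to 31554 CPM with pupal RNAi, 24182 to 30649 CPM in pupal controls, 9214 to 10140 CPM with larval RNAi and 8165 to 9995 CPM in larval controls. Its members did not move alike by stage: nSyb, Syt1, brp and Appl were higher in pupal than in larval controls. The other markers were lower, with elav at 1093 to 1262 against 2714 to 2800 CPM and fne at 1030 to 1381 against 2217 to 2953 CPM. In BG3 cells the sum was 89.0 to 107 CPM with shep dsRNA and 86.1 to 90.9 CPM with GFP dsRNA. Most of it was elav (79.7 to 86.2 CPM with GFP dsRNA), and fne was at 0 in every shep dsRNA library. Of these neuronal markers, BG3 cells therefore had little beside elav, which was itself below its level in the sorted neurons.

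Of the 32 Rab genes, 25 reached the count filter in at least 1 of the models, and 7 had next to no reads. Rab9Fa, RabX5 and Rab9D had 0 counts in all 18 libraries, and RabX2 and Rab9E had 1 count in all. Rab9Db had 3 counts over the 18 libraries and Rab9Fb had 6, never more than 2 in a library. These 7 genes each have 1 annotated transcript, and 6 of them lie on X between 10417429 and 10952486 of dm6, a span of 0.535 Mb. The seventh, RabX5, lies on 3L. Of all members, 5 lie on 2L, 5 on 2R, 5 on 3L, 4 on 3R and 13 on X. How reads that map to several places were counted is not given in the sources used here, and a count near 0 for a closely related copy is uncertain. The strand setting was not given either, and exons of RabX6 share 466 bases with Vti1a on the other strand, exons of Rab26 share 200 bases with asRNA:CR46068, and exons of RabX4 share 131 bases with Kaz.

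The Rab repertoire of pupal neurons was led by Rab3, the synaptic vesicle Rab, and those of larval neurons and BG3 cells by Rab11, the recycling endosome Rab. To compare genes, CPM were divided by exonic length in kilobases. In pupal controls, Rab3 stood at 410 ± 49.3 CPM per kb (SD, n = 3), followed by Rab14 at 144 ± 20.4, Rab11 at 131 ± 24.3, Rab2 at 119 ± 6.48, Rab5 at 119 ± 6.72 and Rab7 at 113 ± 6.15 CPM per kb. The 5 genes after Rab3 did not differ from their neighbours in this order beyond their spread. In larval controls the order was Rab11 at 118 ± 13.4, Rab2 at 96.3 ± 4.12, Rab35 at 82.8 ± 4.78, Rab5 at 64.0 ± 1.72 and Rab8 at 53.0 ± 3.26 CPM per kb, with Rab3 in place 9 at 38.3 ± 3.74. In GFP dsRNA cells it was Rab11 at 210 ± 18.3, Rab5 at 87.3 ± 3.17, Rab7 at 84.2 ± 6.48, Rab2 at 62.6 ± 1.82 and Rab6 at 50.8 ± 1.26 CPM per kb. Rab5 and Rab7, neighbours in that order, did not differ beyond their spread. Rab3 made up 29.1% of the summed Rab level per kb with pupal RNAi and 27.6% in pupal controls, but 4.62% with larval RNAi and 5.01% in larval controls. Summed without regard to length, the 32 genes stood at 4073 ± 183 CPM with pupal RNAi, 3808 ± 358 in pupal controls, 1706 ± 67.9 with larval RNAi, 1691 ± 78.3 in larval controls, 1563 ± 31.7 with shep dsRNA and 1535 ± 50.2 with GFP dsRNA.

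**Figure D1:**
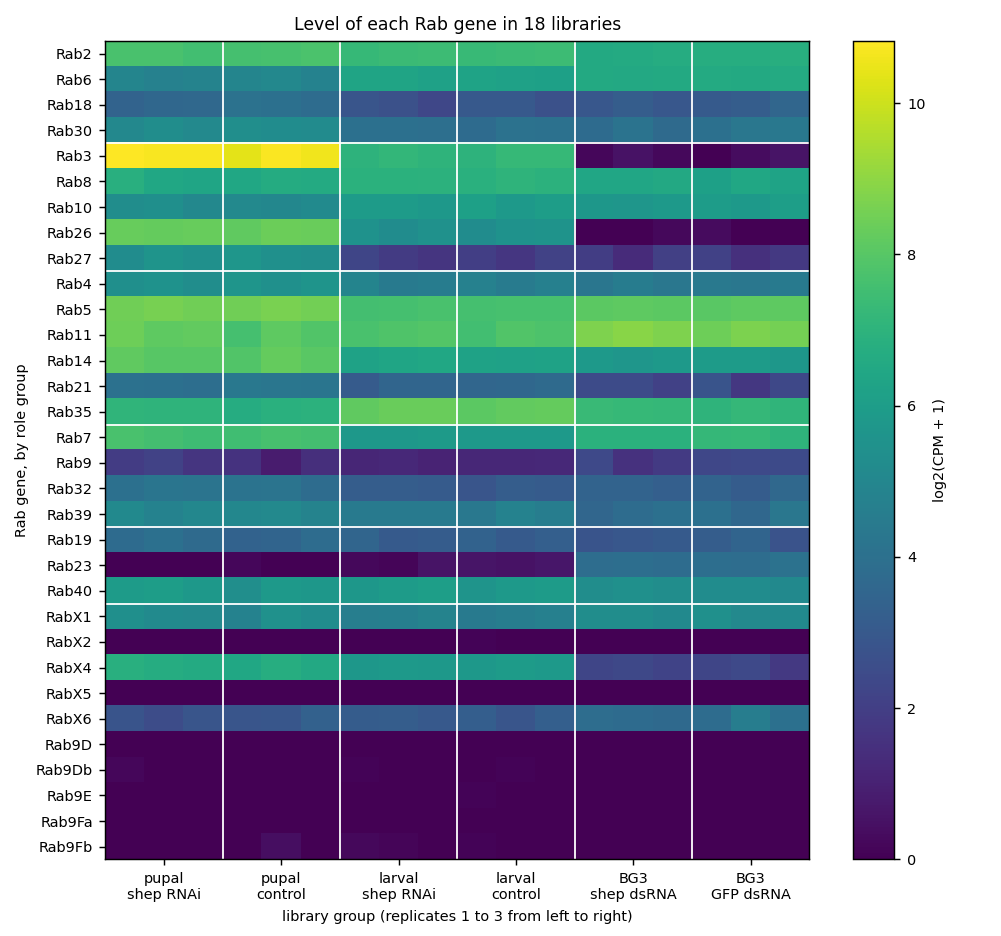
Levels of the Rab genes in each of the 18 libraries, as log2(CPM + 1) in colour, with genes in rows ordered by role and libraries in columns by group. Rab3, Rab26 and Rab27 are brighter in the 6 pupal libraries, Rab3 and Rab26 are near 0 in the 6 BG3 libraries, and the Rab9-like genes and RabX2 are near 0 everywhere.

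To learn whether Rab genes responded to loss of shep in maturing neurons, RNAi and control pupal neurons were compared. 1 of 24 tested Rab genes was called at an edgeR Benjamini-Hochberg adjusted p under 0.05, against 7.65% of all genes tested. It was higher, as were 3.48% of all genes tested. The median log2 fold change of the 24 was -0.01, against 0.01 for all genes tested, and the values ran from -0.44 to 0.88. The called gene was Rab11 (FBgn0015790, 3R from 21111408 to 21116146), which directs cargo from recycling endosomes back to the plasma membrane. Rab11 had 342, 283 and 298 CPM in the RNAi libraries, against 196, 283 and 233 CPM in the controls. Control replicate 2 lay just above the lowest RNAi library, so that the groups overlapped. The log2 fold change of Rab11 was 0.36 (edgeR adjusted p = 0.0494, SE 0.11). The call was not made in 9 of 13 alternatives, where the adjusted p of Rab11 ran from 0.00223 to 0.287, among them the fits that left out RNAi replicate 1 (0.201), RNAi replicate 3 (0.0947), control replicate 1 (0.287) and control replicate 3 (0.150). Hemocyte markers summed to 261 to 279 CPM with RNAi and 304 to 347 CPM in controls. Nearly all of these sums was Pxn. Glial markers summed to 5.27 to 8.35 and 8.31 to 10.6 CPM. The part of these markers in the pupal results was not tested.

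Another 4 Rab genes had an unadjusted p under 0.05 in pupal neurons without passing the adjusted threshold. Rab35, which recycles endosomal cargo and acts on actin, had 133, 130 and 131 CPM with RNAi, against 103, 115.01 and 122 CPM in controls (log2 fold change 0.21, edgeR adjusted p = 0.129, SE 0.08). The groups of Rab35 did not overlap. Rab9, a late endosome Rab known in mammals for transport back to the trans-Golgi, had 2.85, 3.40 and 2.15 CPM with RNAi, against 2.04, 0.792 and 1.71 CPM in controls. All RNAi libraries lay above all controls, but at a level of a few CPM the log2 fold change of 0.88 had an SE of 0.35 (edgeR adjusted p = 0.133). Rab40, whose vertebrate relatives bind a ubiquitin ligase through a SOCS box, had a log2 fold change of 0.28 (SE 0.13) with overlapping groups. Rab18, found on the endoplasmic reticulum and lipid droplets, had 9.97, 11.1 and 11.7 CPM with RNAi, against 15.8, 14.7 and 13.4 CPM in controls. Each RNAi library was below each control, with a log2 fold change of -0.44 (edgeR adjusted p = 0.129, SE 0.17). Rab21, an early endosome Rab, had 15.4, 15.2 and 14.3 CPM with RNAi, against 18.97, 17.7 and 17.4 CPM in controls. Its groups did not overlap, with a log2 fold change of -0.28 (edgeR adjusted p = 0.261, SE 0.15). Those of RabX6 did not overlap either (-0.39, edgeR adjusted p = 0.296, SE 0.22). The share of all genes tested whose groups did not overlap is not given here. The synaptic members stayed close to their controls, with log2 fold changes of 0.15 (SE 0.09) for Rab3, -0.02 (SE 0.08) for Rab26 and -0.07 (SE 0.13) for Rab27.

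In larval neurons 0 of 24 Rab genes were called by edgeR, against 0.364% of all genes tested. None had an unadjusted edgeR p under 0.05, and DESeq2 called 0 as well. Their log2 fold changes ran from -0.33 for Rab18 to 0.12 for Rab40, with a median of -0.03 against -0.00 for all genes tested. Rab11 had 207, 227 and 240 CPM with RNAi, against 187, 234 and 220 CPM in controls, with overlapping groups and a log2 fold change of 0.06 (SE 0.11). Rab21 had 7.57, 10.6 and 10.7 CPM with RNAi, against 10.8, 11.1 and 12.4 CPM in controls. Its groups did not overlap, but the log2 fold change of -0.27 did not pass (edgeR adjusted p = 0.633, SE 0.14). The difference between the pupal and the larval response was tested as an interaction, and 0 of 24 Rab genes were called, against 0.364% of all genes tested. Rab10 (0.31, SE 0.15) and Rab9 (1.04, SE 0.49) had an unadjusted edgeR p under 0.05 for this difference in log2 fold change, and DESeq2 called 0 Rab genes. For Rab11 the difference was 0.30 (edgeR adjusted p = 0.501, SE 0.16), so that its responses at the stages were not shown to differ.

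In BG3 cells, shep and GFP dsRNA were compared over 23 Rab genes, since Rab3 and Rab26 did not pass the count filter there. 1 Rab gene was called, against 5.41% of all genes tested. It was lower, as were 2.07% of all genes tested. The median log2 fold change was -0.08, against -0.01 for all genes tested, and the values ran from -0.48 to 0.21. The called gene was Rab7 (FBgn0015795, 3R from 23993008 to 23995452), which drives late endosomes and autophagosomes to fuse with lysosomes. Rab7 had 121, 119 and 120.5 CPM with shep dsRNA, against 148, 151 and 130.5 CPM with GFP dsRNA. All shep dsRNA libraries were below all GFP dsRNA libraries, with a log2 fold change of -0.26 (edgeR adjusted p = 0.0391, SE 0.07). The adjusted p of Rab7 ran from 0.0137 to 0.153 over 12 alternatives, 8 of which made no call. Those 8 included 5 of the 6 that left out 1 library, namely GFP dsRNA replicate 1 or 2 or shep dsRNA replicate 1, 2 or 3. Glial markers summed to 438 to 449 CPM with shep dsRNA and 369 to 409 CPM with GFP dsRNA. Hemocyte markers summed to 516 to 553 and 446 to 487 CPM, and muscle markers to 332 to 393 and 301 to 325 CPM. These sums came mostly from moody, srp and Act57B, respectively. The part of these differences, and of the greater depth with shep dsRNA, was not tested. In pupal neurons the log2 fold change of Rab7 was -0.01 (SE 0.08), and in larval neurons it was -0.02 (SE 0.08).

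Rab11 in BG3 cells had 424, 477 and 429 CPM with shep dsRNA, against 350.0, 416 and 377 CPM with GFP dsRNA. The libraries of the groups did not overlap, but the log2 fold change of 0.21 (SE 0.07) did not pass (edgeR adjusted p = 0.107). It was called in 4 of 12 alternatives, including those with no count filter (0.0300) and without GFP dsRNA replicate 2 (0.0121), over a range of adjusted p from 0.0121 to 0.384. Rab35 (log2 fold change 0.15, SE 0.07) had an unadjusted p under 0.05, as did Rab10 (-0.24, SE 0.09), a Rab of secretion to the plasma membrane, the Golgi-associated Rab30 (-0.36, SE 0.16) and RabX6 (-0.42, SE 0.19). Rab23, which acts in planar polarity in flies and Hedgehog signalling in mice, had a log2 fold change of -0.11 (SE 0.16) and could be tested on knockdown only in these cells.

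**Figure D2:**
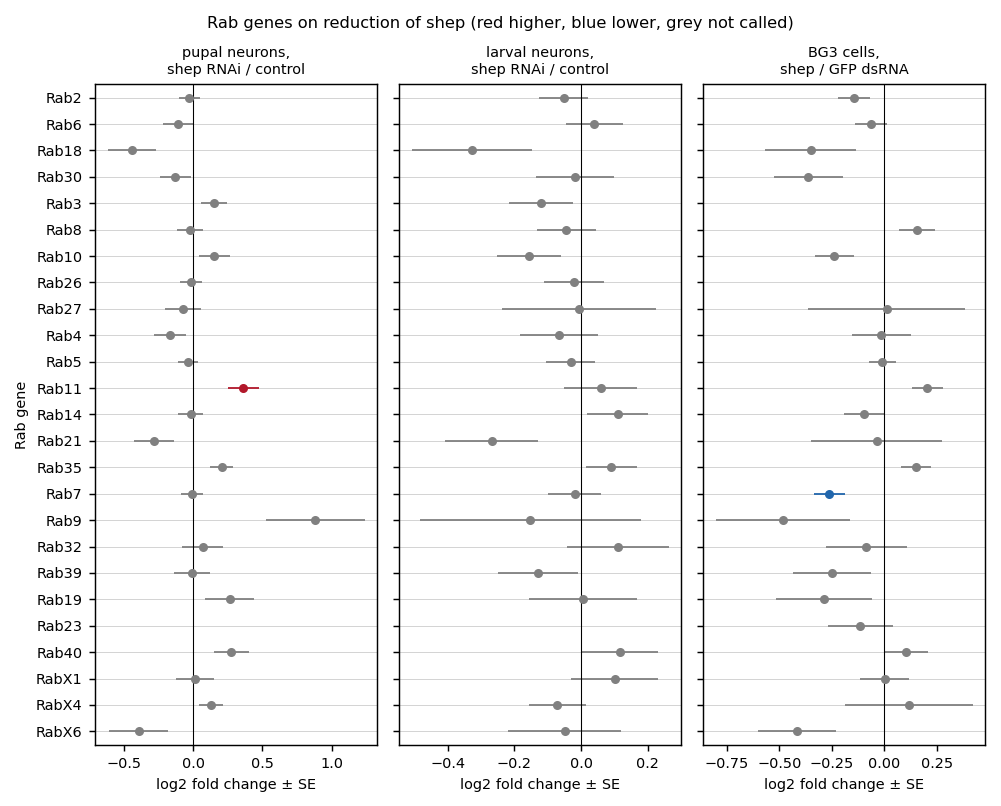
Log2 fold change on reduction of shep for each tested Rab gene (points, with bars of 1 SE), in pupal neurons, larval neurons and BG3 cells, on a separate horizontal scale in each panel. Rab11 in pupal neurons (0.36, higher) and Rab7 in BG3 cells (-0.26, lower) are the coloured, called genes; the grey ones did not pass.

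Most Rab genes differed between the stages. Between pupal and larval control neurons, 16 of 24 Rab genes were higher in pupae and 4 were lower, at a background of 83.3% called among all genes tested, 39.0% higher and 44.3% lower. The share called was thus near the background. The median of the 24 was 0.65, against -0.16 for all genes tested. In bulk libraries of this kind, fewer cells of a type and less RNA per cell cannot be told apart. Markers of other cells also differed between the stages: 4 neuroblast markers (ase, mira, dpn, wor) summed to 7.60 to 11.1 CPM in pupal and 256 to 372 CPM in larval controls, 5 hemocyte markers to 304 to 347 and 36.3 to 41.4 CPM, 4 glial markers to 8.31 to 10.6 and 15.4 to 19.6 CPM, and 4 muscle markers to 15.5 to 23.8 and 28.2 to 42.5 CPM. The 3 fat body markers summed to 0 to 0.317 and 0.0823 to 0.704 CPM. NimC1, He, Fbp1 and Lsp2 were at 0 in all pupal controls, and no marker of these lists was at 0 throughout the larval controls. The pupal hemocyte sum was nearly all Pxn (304 to 347 CPM, against 33.6 to 37.6 CPM in larval controls). Hml (0 to 0.311 against 0.412 to 0.763 CPM) and srp (0.157 to 0.311 against 1.84 to 5.37 CPM) were lower in pupal controls. The part of these markers in the stage differences was not tested.

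Among the 5 exocytosis Rabs, Rab3, Rab26 and Rab27 were higher in pupal neurons, and Rab10 and Rab8 were lower. Of all genes tested, 39.0% were higher and 44.3% lower. Rab3 (FBgn0005586, 2R from 10721335 to 10729203), which in flies also shapes the active zone, had 1347, 1716 and 1559 CPM in pupal controls, against 128, 153 and 151 CPM in larval controls. Every pupal library lay far above every larval one, with a log2 fold change of 3.43 (edgeR adjusted p = 6.53e-20, SE 0.10). Rab26 (FBgn0086913, 3L from 21318774 to 21335027), which in mammals links synaptic vesicles to autophagy, had 285, 332 and 326 CPM in pupal controls, against 37.6, 44.4 and 45.5 CPM in larval controls (2.90, SE 0.09). Rab27 (FBgn0025382, X from 1473884 to 1476974), known in mammals for exosome and dense-granule release, had 50.0, 42.8 and 39.7 CPM in pupal controls, against 2.99, 2.29 and 3.38 CPM in larval controls. Its log2 fold change of 3.93 (edgeR adjusted p = 5.84e-17, SE 0.17) was the largest of the 24. Rab10, which directs basement membrane secretion in the fly follicle, was lower, with 32.8, 31.7 and 35.0 CPM in pupal and 70.9, 55.6 and 63.7 CPM in larval controls (-0.93, SE 0.10). Rab8, a Rab of post-Golgi carriers, was lower at 86.1, 99.5 and 96.0 CPM in pupal controls, against 115.1, 130 and 123 CPM in larval controls. The log2 fold change of Rab8 was -0.38 (SE 0.09), and it was -0.03 (edgeR adjusted p = 0.801) when the trend of each library with gene length was removed.

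**Figure D3:**
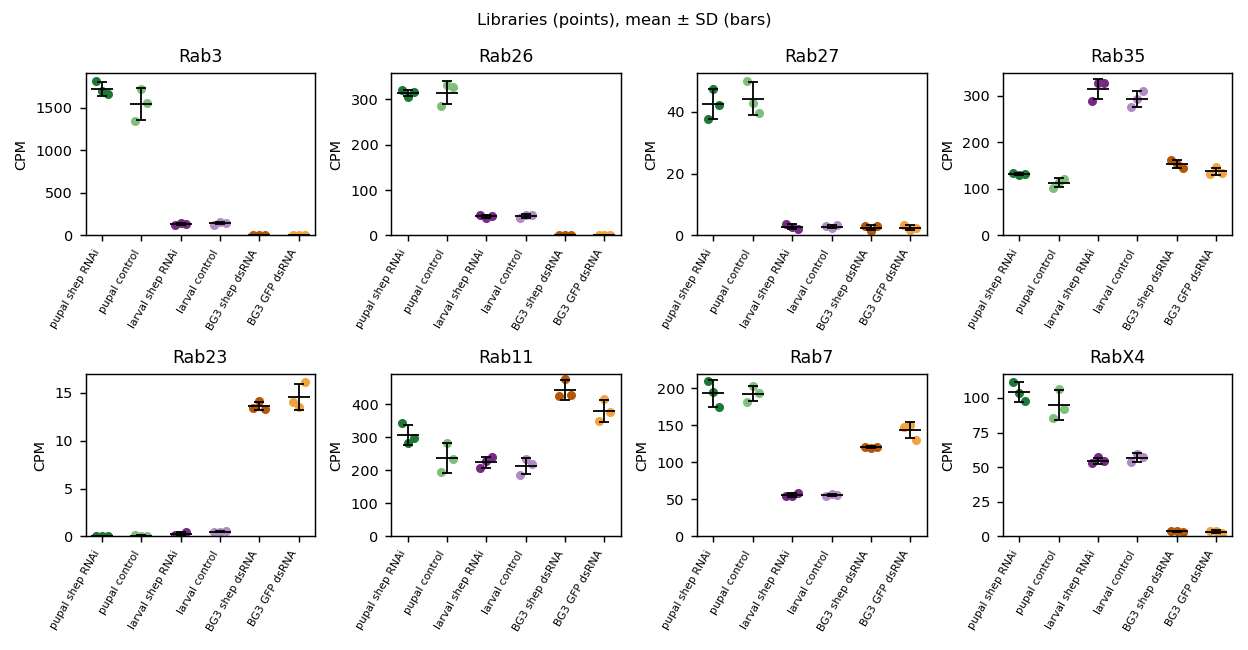
Level in CPM (linear axis from 0) of 8 Rab genes in each library (points) with the group mean and 1 SD (bars), for the 6 groups in the order pupal RNAi, pupal control, larval RNAi, larval control, BG3 shep dsRNA and BG3 GFP dsRNA. Rab3, Rab26 and Rab27 are high in pupae, Rab35 is high in larvae (276 to 309 CPM in controls), and Rab23 is detected mainly in BG3 cells.

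The 4 tested Rabs of the endoplasmic reticulum and Golgi split by stage, with 3 higher and 1 lower in pupae. Among all genes tested, 39.0% were higher and 44.3% lower. Rab30 had 39.8, 37.9 and 35.8 CPM in pupal controls, against 12.9, 16.1 and 15.4 CPM in larval controls (log2 fold change 1.37, SE 0.11). Rab18 (1.18, SE 0.17) and Rab2 (0.31, SE 0.07), which acts between the Golgi, the endoplasmic reticulum and lysosomes, were higher too, with no overlap of libraries. Rab6 (FBgn0015797, 2L from 12107221 to 12109116), the Rab of traffic from and back to the Golgi, went the other way. Rab6 had 29.2, 32.5 and 26.9 CPM in pupal controls, against 77.6, 72.1 and 69.6 CPM in larval controls. Its log2 fold change was -1.30 (edgeR adjusted p = 5.63e-12, SE 0.10).

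Of the 6 early and recycling endosome Rabs, 4 were higher, 1 was lower and Rab11 did not pass. The background was 39.0% higher and 44.3% lower. Rab14, which in flies acts in endosome and phagosome maturation, had 234, 309 and 261 CPM in pupal controls, against 74.5, 71.6 and 73.8 CPM in larval controls (log2 fold change 1.88, SE 0.09). Rab5, the Rab of early endosome fusion, had 353, 396 and 371 CPM in pupal controls, against 195, 206 and 202 CPM in larval controls (0.90, SE 0.07). Rab4, of rapid recycling (0.92, SE 0.12), and Rab21 (0.67, SE 0.14) were higher as well. Rab35 (FBgn0031090, X from 20155766 to 20159872) had 103, 115.01 and 122 CPM in pupal controls, against 276, 294 and 309 CPM in larval controls. It was lower in every pupal library, with a log2 fold change of -1.36 (edgeR adjusted p = 5.51e-14, SE 0.08), the most negative of the 24. Rab11 had a log2 fold change of 0.16 (edgeR adjusted p = 0.181, SE 0.11) with overlapping groups, and it was called without pupal control replicate 1 (0.30) and with the length trend removed (0.54).

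Late endosome and lysosome Rabs were higher in pupae in 3 of 4 cases, at a background of 39.0% higher and 44.3% lower. Rab7 had 182, 202 and 194 CPM in pupal controls, against 54.5, 57.6 and 56.1 CPM in larval controls. The groups were far apart, with a log2 fold change of 1.79 (edgeR adjusted p = 1.71e-16, SE 0.08). Rab32, the lightoid gene of eye pigment granules (1.11, SE 0.15), and Rab39 (0.45, SE 0.12) were higher, while Rab9 (0.17, SE 0.36) did not pass. Among the less studied members, RabX4 (0.74, SE 0.09), RabX1 (0.63, SE 0.13) and Rab19 (0.38, edgeR adjusted p = 0.0423, SE 0.17) were higher, and RabX6 (-0.09, SE 0.19) and Rab40 (-0.14, SE 0.12) did not pass. Rab19 lost its call in 5 of 14 alternatives, including those without pupal control replicate 3 (adjusted p 0.243), larval control replicate 2 (0.153) or larval control replicate 3 (0.0742). Rab23 was too low for the neuron model, with 1, 0 and 0 counts in pupal controls and 8, 5 and 7 counts in larval controls.

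The stage contrast was also made in the RNAi libraries, pupal against larval, which was chosen after seeing the data. The contrast of controls does not use the means of these groups. Both contrasts share the scaling and the spread estimated over the 12 neuron libraries, so they are not independent. There 23 of 24 Rab genes were called, and all 20 calls of the controls were made again in the same direction. The share of all genes called in this RNAi contrast was not determined. In the controls it was 83.3%, so these counts are not read as particular to Rab genes. Rab3 (3.70), Rab27 (3.86) and Rab26 (2.91) had log2 fold changes close to those of controls, as did Rab35 (-1.25) and Rab6 (-1.45). Rab11 (0.46), Rab9 (1.21) and RabX6 (-0.44) were called in RNAi neurons only, but the difference between the contrasts is the interaction reported above, and none of them passed it.

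**Figure D4:**
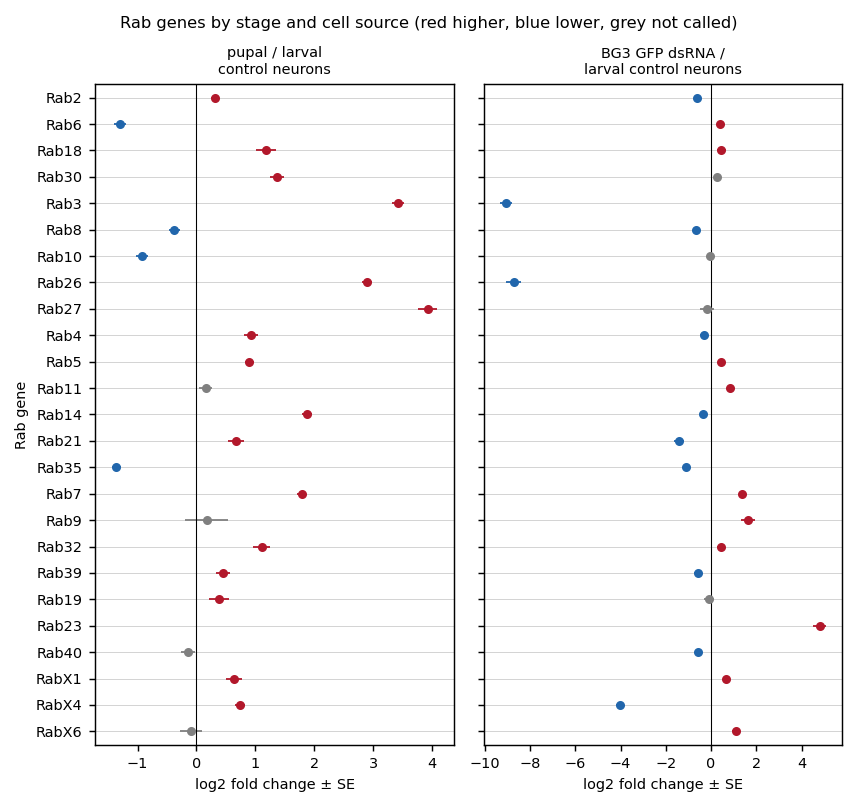
Log2 fold change (points, with bars of 1 SE) of the tested Rab genes between pupal and larval control neurons, and between GFP dsRNA BG3 cells and larval control neurons. Pupal values are mostly positive, with Rab27, Rab3 and Rab26 at 3.93, 3.43 and 2.90. The fitted BG3 values of Rab3 and Rab26 rest on 3 and 1 counts in BG3 cells, so that their exact size depends on the fit.

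BG3 cells were compared with larval neurons, the sorted cells nearest to them in stage of origin. The contrast uses the same larval control libraries as the stage contrast, so the results are not independent. It also sets cultured cells against sorted cells that differ in handling and depth, which cannot be told apart from cell identity. Of 25 Rab genes, 10 were higher and 11 lower in GFP dsRNA cells, at a background of 82.5% called, 37.0% higher and 45.4% lower. The median of the 25 was -0.09, against -0.23 for all genes tested. In the knockdown libraries (shep dsRNA cells against larval RNAi neurons, chosen after seeing the data) 19 of these 21 calls were made again in the same direction. The share of all genes called in that contrast was not determined, so this count is not read as particular to Rab genes.

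No exocytosis Rab was higher in BG3 cells, and 3 of 5 were lower. Among all genes tested, 37.0% were higher and 45.4% lower. Rab3 had 0, 1 and 2 counts in the GFP dsRNA libraries, 3 in all, against 5582 counts over the larval controls. The ratio of larval control to GFP dsRNA level was 562 for Rab3 (95% exact interval 192 to 2726, counting error only). Rab26 had 1 count in all in GFP dsRNA cells, against 1648 counts in larval controls, a ratio of larval control to GFP dsRNA level of 498 (95% exact interval 89.2 to 19674, counting error only). Rab27 was low in both, at 3.25, 1.86 and 2.44 CPM in GFP dsRNA cells and 2.99, 2.29 and 3.38 CPM in larval controls, with overlapping groups. Rab8 was lower (log2 fold change -0.67, SE 0.10), and Rab10 did not pass (-0.05, SE 0.10).

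Endosomal members differed in both directions. Rab7 was higher in GFP dsRNA cells, at 148, 151 and 130.5 CPM, against 54.5, 57.6 and 56.1 CPM in larval controls (log2 fold change 1.35, SE 0.08). Rab11 (0.83, SE 0.11), Rab5 (0.45, SE 0.08) and Rab9 (1.63, SE 0.33) were higher too, with no overlap of libraries. Rab21 (-1.44, SE 0.22), Rab35 (-1.09, SE 0.08), Rab39 (-0.58, SE 0.16), Rab14 (-0.34, SE 0.10) and Rab4 (-0.33, SE 0.14) were lower. The call of Rab4 was lost with DESeq2 (adjusted p = 0.0672) and without GFP dsRNA replicate 2 (edgeR adjusted p = 0.0822). Rab32 was called higher (0.44, edgeR adjusted p = 0.0245, SE 0.18) with overlapping groups. It lost the call in 6 of 14 alternatives, among them the contrast of knockdown libraries. Among Golgi members, Rab6 (0.40, SE 0.08) and Rab18 (0.44, edgeR adjusted p = 0.0407, SE 0.20) were higher, Rab2 was lower (-0.62, SE 0.08) and Rab30 (0.25, SE 0.14) did not pass. Rab18 lost its call in 8 of 14 alternatives, which include the contrast of knockdown libraries.

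Rab23 and RabX4 separated the cell line from the neurons. Rab23 (FBgn0037364, 3R from 5680054 to 5685434) had 56, 51 and 66 counts in GFP dsRNA cells, against 8, 5 and 7 counts in the deeper larval control libraries. It passed the filter only through the BG3 libraries, and its log2 fold change was 4.79 (SE 0.28). RabX4 (FBgn0051118, 3R from 24826665 to 24828409) had 3.75, 4.25 and 2.44 CPM in GFP dsRNA cells, against 53.8, 59.7 and 57.4 CPM in larval controls, with a log2 fold change of -4.03 (SE 0.16). RabX6 (1.11, SE 0.19) and RabX1 (0.64, SE 0.14) were higher, Rab40 was lower (-0.57, SE 0.12), and Rab19 (-0.09, SE 0.21) did not pass. Marker sums moved with this contrast: beside the neuronal markers given above, glial markers stood at 369 to 409 CPM in GFP dsRNA cells and 15.4 to 19.6 CPM in larval controls, hemocyte markers at 446 to 487 and 36.3 to 41.4 CPM, muscle markers at 301 to 325 and 28.2 to 42.5 CPM, and neuroblast markers at 0.532 to 1.501 and 256 to 372 CPM. Fat body markers summed to 0 to 0.250 CPM and 0.0823 to 0.704 CPM, and He, wor, Lsp2 and Lsp1beta were at 0 in every GFP dsRNA library. The part of these cell identities in the Rab differences was not tested.

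Rab regulators and effectors were followed in 6 lists holding 64 genes, of which 62 were matched. On shep RNAi in pupal neurons, 1 was higher and 1 was lower of 62, or 3.23% against 7.65% of all genes tested, with a median log2 fold change of -0.13 against 0.01 for all genes tested. GM130, a cis-Golgi matrix golgin bound by Rab proteins, had 61.1, 55.7 and 57.6 CPM with RNAi, against 39.2, 36.8 and 38.1 CPM in controls. The RNAi libraries of GM130 lay well above the controls, with a log2 fold change of 0.60 (edgeR adjusted p = 0.00036, SE 0.10), and the call held in all 13 alternatives. Rich, part of the Rab6 exchange factor, had 62.2, 65.4 and 49.2 CPM with RNAi, against 86.7, 69.1 and 72.9 CPM in controls (-0.38, edgeR adjusted p = 0.0341). The groups did not overlap, and the call of Rich was lost in 5 of 13 alternatives. Rab6 itself had a log2 fold change of -0.11 (SE 0.11) there.

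In larval neurons edgeR called 0 of the 62 regulators and effectors, against 0.364% of all genes tested. Of the 62, 2 had an unadjusted edgeR p below 0.05, and DESeq2 called 0. GM130 had 35.1, 37.7 and 35.2 CPM with larval RNAi, against 39.9, 32.9 and 36.1 CPM in larval controls, with overlapping groups. The pupal minus larval difference in its log2 fold change was 0.63 (edgeR adjusted p = 0.0307, SE 0.14). The call of this difference was lost in 9 of 12 fits that left out a library. In BG3 cells 1 of 58 was called, against 5.41% of all genes tested: Vps11, a core subunit of the tethering complexes that act with Rab5 and Rab7. Vps11 had 17.7, 22.2 and 21.0 CPM with shep dsRNA, against 33.8, 29.2 and 27.1 CPM with GFP dsRNA. The groups did not overlap, and the log2 fold change was -0.59 (edgeR adjusted p = 0.0096, SE 0.13); it did not pass without GFP dsRNA replicate 1 (0.0793) or shep dsRNA replicate 1 (0.0947).

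By stage, 45 of 62 regulators and effectors were higher in pupal controls and 11 were lower, with a median of 0.91 against -0.16 for all genes tested. The share called was 90.3%, against 83.3% of all genes tested, 39.0% higher and 44.3% lower. Counts with the length trend removed are not given here for the stage contrast. Of 14 GEF genes, 10 were higher and 2 lower. Rab3-GEF had 2781, 3110 and 3027 CPM in pupal controls, against 55.1, 66.0 and 66.2 CPM in larval controls (log2 fold change 5.58, SE 0.12), beside a log2 fold change of 3.43 for Rab3 itself. Rich had 86.7, 69.1 and 72.9 CPM in pupal controls, against 19.9, 20.1 and 17.5 CPM in larval controls. The Rab5 exchange factor Gapvd1 (1.76) was higher too, while spri (-1.28), a RIN-type Rab5 exchange factor, was lower. Of 15 GAP genes, 11 were higher and 3 lower. The 4 with the smallest p were CG42795 (5.64), sky (3.63), a Rab35 GAP that acts at fly synapses, TBC1D16 (2.60) and plx (2.45). Of 7 secretory and recycling effectors, 6 were higher and 1 lower, with a median of 1.58. They included the synaptotagmin-like btsz (3.75), the Rab3-binding active zone gene Rim (2.93), the myosin V gene didum (1.58) and the rabphilin gene Rph (1.26). The value of Rim ran from 2.10 to 3.22 over 14 alternatives.

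Of 12 endosomal effectors, 8 were higher in pupal controls and 2 lower. The background for this list and the next ones was 39.0% higher and 44.3% lower among all genes tested. The Rab7-linked Plekhm1 (2.34) and ema (0.98) were higher, as were Vps15 (1.43) and Pi3K59F (1.39), which form the class III lipid kinase. Of 9 Golgi effectors, 7 were higher and 1 lower, with the Rab6-binding dynein adaptor BicD (2.30) and the golgins Golgin245 (1.31), Gmap (1.21) and lva (1.03) at the smallest p. Over 14 alternatives lva ran from 0.32 to 1.07 and Gmap from 0.76 to 1.27. The general Rab cycle moved unevenly, with 3 of 5 genes higher and 2 lower. The escort protein gene Rep was higher, at 19.6, 16.6 and 18.8 CPM in pupal controls, against 8.90, 8.01 and 8.89 CPM in larval controls. The gene temp, for a prenyltransferase-like factor, was higher too (2.14). Gdi, the GDP dissociation inhibitor gene, was lower at 187, 166 and 171 CPM in pupal controls, against 301, 286 and 272 CPM in larval controls (-0.70, SE 0.08). The prenyltransferase subunit gene RabGGTa was lower too (-0.62, SE 0.19), but lost the call when the length trend was removed.

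In GFP dsRNA cells against larval controls, 15 of 62 regulators and effectors were higher and 34 lower, or 26 higher and 20 lower with the length trend removed. With no length trend removed, their share called was 79.0%, against 82.5% of all genes tested, 37.0% higher and 45.4% lower. The median was -0.35, against -0.23 for all genes tested. Of the 14 GEF genes 3 were higher and 9 lower. Sbf, a myotubularin-family gene, had 0 counts in all 6 BG3 libraries and was at least 252-fold lower, with the level in GFP dsRNA cells set at 3 counts over the group. Rab3-GEF (-6.68) and Gapvd1 (-1.12) were lower as well, with Gapvd1 running from -1.27 to -0.26 over 14 alternatives. The gene spri was lower (-1.14), but stood at 0.12 with the length trend removed. Of the 15 GAP genes 3 were higher and 9 lower, with TBC1D16 (-5.23), CG42795 (-2.76), Evi5 (-2.72) and plx (-1.24) at the smallest p. The value of plx ran from -1.47 to -0.25 over 14 alternatives. Of the 7 secretory and recycling effectors 1 was higher, the Rab11-binding Rip11 (0.56), and 5 were lower. Rim had 0 counts in GFP dsRNA cells and was at least 1534-fold lower by the same floor, and btsz (-3.12) and Rph (-1.61) were lower too.

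Of the 12 endosomal effectors 2 were higher in BG3 cells, Plekhm1 (1.98) and the Rab5 effector Rbsn-5 (0.96). Another 6 were lower, among them the tethering subunit gene lt (-1.51) and Vps45 (-0.76). The background for this list and the next ones was 37.0% higher and 45.4% lower among all genes tested. Of the 9 Golgi effectors 3 were higher, including lva (0.64) and BicD (0.37), and 4 were lower, including GCC185 (-0.97) and GM130 (-0.54). The value of lva ran from 0.54 to 1.78 over 14 alternatives. Of the 5 Rab cycle genes 3 were higher, Rep (1.49), RabGGTa (1.00) and temp (0.77), and Gdi was lower (-0.45).

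**Figure D5:**
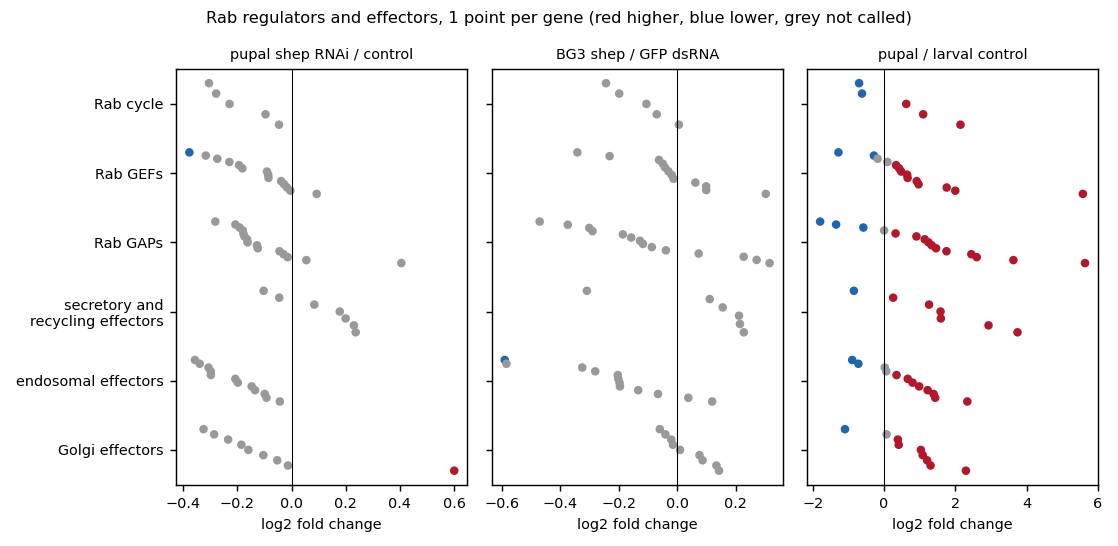
Log2 fold change of each gene of the 6 lists of Rab regulators and effectors (1 point a gene) on shep RNAi in pupal neurons, on shep dsRNA in BG3 cells and between pupal and larval control neurons. On reduction of shep nearly all points are grey, with GM130 at 0.60, Rich at -0.38 and Vps11 at -0.59 called, and by stage 45 of 62 are called higher.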

How the data were processed

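The 18 RNA-seq libraries were assigned to 6 groups of 3 by their titles. The authors deposited raw whole-number read counts per gene. Per the submitters' processing notes, cutadapt 1.10, HISAT2 2.0.4 and featureCounts 1.5.0-p3 were used with the dm6 build; the annotation release, strand setting and multi-mapping rule are not given in the sources used here. Symbols, exonic lengths and coordinates came from Ensembl release 115 and covered 17210 of 17402 genes. Of all genes, 2102 had no count.

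Counts were tested in R 4.3.3 with edgeR 4.0.16 (filterByExpr, TMM, robust quasi-likelihood fits, 2-sided), on the whole table, with Benjamini-Hochberg adjustment over all genes and calls at 0.05. The 12 neuron libraries were fitted together and the 6 BG3 libraries alone; BG3 against larval neurons used all 18. The members, roles and lists were chosen with earlier results of these data known, and lists are described by counts and medians only. All Rab genes are accounted for; of each regulator list up to 4 called genes with the smallest p are named. An exact permutation test of 3 against 3 libraries cannot go below a p of 0.1. No sequences are shown.

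Alternatives were RLE size factors, DESeq2 1.42.0, no filter, a filter of 1 CPM in 3 libraries, a replicate block, only the compared groups, removal of each library's trend with exonic length (lowess, span 0.3) and each library left out. On simulated data, recovery of 2-fold changes was 84% for pupal RNAi, 82% for larval RNAi, 68% for the interaction, 84% for stage, 96% for BG3 dsRNA and 64% for BG3 against larval neurons. The simulations changed few genes, whereas most genes were called by stage and between BG3 cells and larval neurons, so those rates may not carry over. False calls made up 3.51% (BG3 against larval neurons) to 8% (BG3 dsRNA) of simulated calls. Recovery of 2-fold changes does not tell how often smaller ones, such as that of Rab11, would be found. Smaller changes were simulated as well, but their recovery is not reported here. Figures were drawn with Python 3.11.15 and matplotlib 3.10.9.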

Additional observations from a re-analysis of the deposited data

Results flagged for a closer look

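The response of GM130 to shep RNAi differed between the stages by the interaction test. Its log2 fold change was 0.60 in pupal neurons and -0.03 in larval neurons, a pupal minus larval difference of 0.63 (SE 0.14, edgeR adjusted p = 0.0307). All 3 pupal RNAi libraries were above all pupal controls, while the larval groups overlapped. The adjusted p of the difference ran from 0.00365 to 0.118 over 18 alternatives, 9 of which made the call.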

How the results depend on the processing

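Over 13 alternatives, the count of called Rab genes on pupal shep RNAi, 1, became 0 with RLE size factors, DESeq2, a filter of 1 CPM, the length trend removed or only the compared groups in the fit, and was 0 to 1 when a library was left out. The count of regulators and effectors there, 2, became 4 with DESeq2 and 1 with only the compared groups, and was 1 to 6 without 1 library. In larval neurons and for the pupal minus larval difference, the Rab count was 0 in every alternative run. The regulator count of that difference, 1, was 0 to 1 without 1 library. In BG3 cells the Rab count on shep dsRNA, 1, was 0 with DESeq2 and 0 to 1 without 1 library. The gene called also changed. With no count filter, the length trend removed or GFP dsRNA replicate 2 left out, Rab7 lost its call and Rab11 was called higher. The regulator count there, 1, was 5 with the length trend removed and 0 to 3 without 1 library. By stage 19 to 21 Rab genes were called without 1 library, and 19 to 20 in BG3 cells against larval neurons. No called Rab gene changed direction in any alternative run. Of the regulators named, spri in BG3 cells against larval neurons reversed to 0.12 with the length trend removed. Rab genes that did not pass changed sign in a number of alternatives, 24 times on pupal RNAi and 27 times on larval RNAi, and their direction is not known. With RLE factors over all libraries, the summed Rab level was 4360 CPM with pupal RNAi, 1633 CPM with larval RNAi and 1598 CPM in larval controls. Removing the length trend moved the share of all calls that were higher on pupal RNAi to 32.8%, from 45.5% with TMM, and RLE factors moved it on larval RNAi to 58.5%, from 46.9%. Removing it also moved the median of all genes by 0.11 by stage and by 0.23 between BG3 cells and larval neurons, both on the log2 scale. The cause of these changes was not tested.

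Replicate numbers showed no clear pairing of RNAi with control neuron libraries, and whether they paired the BG3 libraries was not settled. The correlations of deviations of same-numbered libraries were -0.18, -0.13 and 0.00 on pupal RNAi and 0.00, -0.05 and 0.01 on larval RNAi. They were 0.19, 0.13 and 0.00 by stage, and 0.04, 0.10 and 0.11 in BG3 cells. For differently numbered BG3 libraries they ran from -0.12 to 0.02, below all those of the same number. With the replicate number as a block, 2 Rab genes and 2 regulators were called in BG3 cells, and the Rab counts on pupal RNAi, on larval RNAi and by stage did not change. When leaving out a library left 2 in its group, the spread was still estimated over all groups of the model. Rab genes of a few CPM, such as Rab9, had SEs over 0.3, so that changes of the size seen for Rab11 could not be detected in them at this depth.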
